A study of Mus musculus with 15 samples.

Results

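The genes described here are 10 components of the insulin-like growth factor (IGF) axis, measured in mouse NIH3T3 fibroblasts that carried genes of the Runx family. They are the docking proteins Irs1 and Irs2, the ligand Igf1, the receptors Igf1r and Igf2r, the binding proteins Igfbp3, Igfbp4, Igfbp5 and Igfbp6, and the PI3-kinase subunit Pik3r3. The members were all probe sets that the platform annotation pairs with 1 of these symbols alone, 25 of 45101 on the array and covering 10 of 10 genes. One further probe set, shared by Igf2r with another gene, was not used. Igfbp4 had 6 probe sets, Igf1r 5, Igf1 4, Igf2r, Igfbp3 and Igfbp5 2 each, and Irs1, Irs2, Igfbp6 and Pik3r3 1 each.

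NIH3T3 is an immortalised line of mouse embryonic fibroblasts. Every culture had been transduced with the retroviral vector pBabe-puro, grown for 7 days to confluence, and given ethanol (0.2%) with or without 4-hydroxytamoxifen (4-OHT, 0.1 mM as the labels give it) for 24 h before RNA was extracted. There were 15 Affymetrix arrays in 8 groups. Mouse Runx1, mouse Runx2 and mouse Runx3, each expressed constitutively, had 2 arrays each, and constitutive human RUNX1 had 1 array. RUNX1-ER, human RUNX1 in a form that 4-OHT switches on, had 2 arrays induced and 2 uninduced, and the empty vector had 2 arrays with 4-OHT and 2 without. For the constitutive lines the labels do not say whether the culture had ethanol alone or 4-OHT, nor whether a line is 1 clone or a pool. The titles call the replicates biological, but nothing says that they came from separate transductions, so p-values measure the spread between these arrays. In RNA from whole cultures, fewer cells with a transcript and less transcript per cell cannot be told apart.

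Values are log2 units after robust multichip averaging (RMA). Array medians ran from 3.69 to 3.75, so a level of 8 is bright and a level of 3 is in the dim lower part of the array. All 8 fibroblast markers examined, among them Col1a1, Col1a2, Vim and Pdgfra, lay above the 75th percentile on every array. Of the measured markers of adipocytes, osteoblasts, blood cells, epithelium and endothelium, Krt8 did so on 3 arrays, both of Runx3 and that of human RUNX1, Lpl on 2 arrays, both of Runx2, and the others on none. The mean over 4 epithelial markers was higher in the Runx3 line (4.89 and 4.90) than in vector cells (3.83 and 3.86), and that over 3 adipocyte markers was higher in the Runx2 line (4.21 and 4.24) than in vector cells (3.70 and 3.72). The epithelial mean was also above vector cells in the Runx1 (4.02 and 4.04) and Runx2 lines (4.16 and 4.21). So it was in vector cells with 4-OHT (3.91 and 4.08), induced RUNX1-ER (4.14 and 4.19) and human RUNX1 (4.26). The adipocyte mean was also above vector cells in the Runx1 (3.75 and 3.85) and Runx3 lines (4.03 and 4.15) and in induced RUNX1-ER (3.86 and 3.96). In vector cells with 4-OHT the adipocyte mean was 3.71 and 3.74, and in human RUNX1 it was 3.47. The part of these markers in the results below was not tested. Vector cells with 4-OHT were closer across the array to vector replicate 2 than to each other, uninduced RUNX1-ER replicate 1 was closest to vector replicate 1, Runx2 replicate 2 to an induced RUNX1-ER array, and the human RUNX1 array correlated least with any other (r = 0.991 at best).

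As background, IGF ligands bind the receptor tyrosine kinase encoded by Igf1r, which phosphorylates the docking proteins Irs1 and Irs2. These recruit PI3-kinase through its regulatory subunits, of which Pik3r3 encodes one, and so activate AKT, a main survival and growth signal of fibroblasts. The binding proteins hold IGFs outside the cell and mostly limit their access to the receptor, and Igf2r takes up Igf2 for degradation.

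Irs1, Pik3r3 and Igfbp6 rose in each of the 3 mouse Runx lines. Igfbp4 fell in the Runx2 line and was higher on all 6 of its probe sets in the Runx3 line, of which 4 were called. Its probe set with the highest mean was not among those 4. With 1 probe set per gene, the one with the highest mean, limma called 3 of the 10 genes in the Runx1 line, all higher than in vector cells, where 1.42% of 18193 genes were called. In the Runx2 line it called 4, of which 3 were higher and Igfbp4 was lower, beside 2.13% of all genes. In the Runx3 line it called 5, with the same 3 higher and Igf1r and Igf2r lower, beside 7.83% of all genes. The median size of change among the 10 was 0.17, 0.21 and 0.46 log2 units in the Runx1, Runx2 and Runx3 lines, where that over the brightest probe set of every gene was 0.09, 0.10 and 0.11. These 3 comparisons share the vector arrays. The 10 genes were chosen with earlier results of these data known. The shares and sizes therefore cannot show whether the axis responds more than other genes. The threshold throughout was a Benjamini-Hochberg adjusted p of 0.05 over all probe sets.

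**Figure D1:**
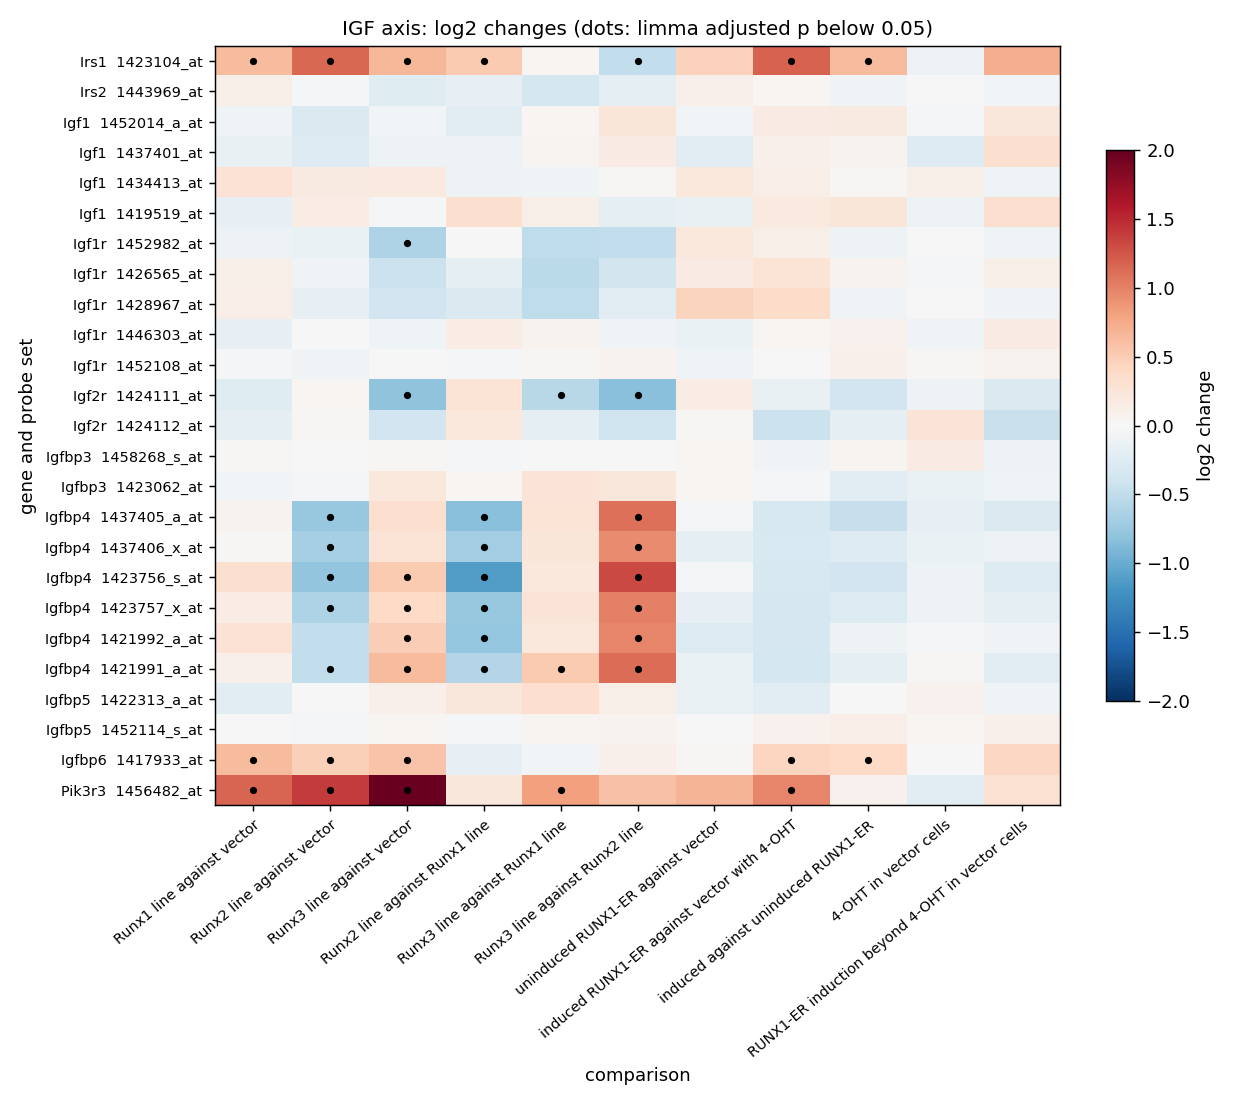
Colour gives the log2 change of each of the 25 probe sets (rows, with the gene and the manufacturer's probe set name) in each of 11 comparisons (columns), the first-named group minus the second, and a dot marks a limma adjusted p below 0.05. Irs1, Igfbp6 and Pik3r3 are called higher in the 3 mouse lines, and the 6 Igfbp4 probe sets are lower in the Runx2 line and higher in the Runx3 line.

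The start regions of the genes that rose are shown because Runx proteins bind DNA through a short core sequence, and because the rise was shared by Irs1, Igfbp6 and Pik3r3. All 10 genes had a RefSeq window (GRCm38.p6) from 250 bases before to 50 after the annotated start, 12 windows in all since Pik3r3 has 3. The Runx core, spelled TGTGGT or TGCGGT and searched on both strands, was found in 1 of the 12 windows, that of Igfbp3, 223 bases before its start. Of 32851 windows of this length in the table, 22.4% hold one. None was found in the windows of Irs1, Igfbp6 or Pik3r3, which says only that these letters are absent there. The Igfbp3 window lies inside the annotated gene (chromosome 11 from 7206086 to 7215498), so its start is not the outermost one. The Igf1 and Igfbp4 windows likewise lie inside their annotated genes. A search for the palindrome CACGTG, added after the sequences had been read, found it in the windows of Irs1 (115 bases before the start), Irs2 (44 bases before) and Igf2r (48 and 7 bases before), where 7.15% of all windows hold it. Irs1 and Irs2 are shown together as the pair of docking proteins, and capitals mark the Runx core or CACGTG.
Irs1, chr1:82291390-82291689, minus strand: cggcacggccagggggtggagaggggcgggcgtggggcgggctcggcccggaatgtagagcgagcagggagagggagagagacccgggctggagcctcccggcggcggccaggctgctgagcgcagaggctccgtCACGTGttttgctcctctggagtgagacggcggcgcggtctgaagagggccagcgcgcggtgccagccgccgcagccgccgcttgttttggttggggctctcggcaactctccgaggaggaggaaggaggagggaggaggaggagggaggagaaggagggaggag
Irs2, chr8:11008880-11009179, minus strand: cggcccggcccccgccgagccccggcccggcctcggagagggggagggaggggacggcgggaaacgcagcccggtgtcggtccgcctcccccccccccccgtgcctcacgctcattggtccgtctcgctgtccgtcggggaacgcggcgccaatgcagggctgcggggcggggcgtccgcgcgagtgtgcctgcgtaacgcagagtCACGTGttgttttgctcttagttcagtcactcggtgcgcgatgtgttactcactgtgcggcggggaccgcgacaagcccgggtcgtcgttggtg
Igfbp6, chr15:102143936-102144235, plus strand: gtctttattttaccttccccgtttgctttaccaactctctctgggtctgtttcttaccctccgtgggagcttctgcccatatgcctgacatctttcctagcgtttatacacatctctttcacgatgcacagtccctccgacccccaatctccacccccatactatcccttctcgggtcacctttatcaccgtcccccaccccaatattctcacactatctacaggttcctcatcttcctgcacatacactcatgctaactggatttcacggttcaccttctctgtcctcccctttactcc
Pik3r3 (first start), chr4:116221166-116221465, plus strand: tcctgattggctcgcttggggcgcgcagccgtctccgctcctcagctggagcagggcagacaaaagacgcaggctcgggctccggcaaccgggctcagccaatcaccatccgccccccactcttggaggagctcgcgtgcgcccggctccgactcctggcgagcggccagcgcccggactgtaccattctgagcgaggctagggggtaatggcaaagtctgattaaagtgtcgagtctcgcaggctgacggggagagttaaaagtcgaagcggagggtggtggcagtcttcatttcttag
Igfbp3, chr11:7213874-7214173, minus strand: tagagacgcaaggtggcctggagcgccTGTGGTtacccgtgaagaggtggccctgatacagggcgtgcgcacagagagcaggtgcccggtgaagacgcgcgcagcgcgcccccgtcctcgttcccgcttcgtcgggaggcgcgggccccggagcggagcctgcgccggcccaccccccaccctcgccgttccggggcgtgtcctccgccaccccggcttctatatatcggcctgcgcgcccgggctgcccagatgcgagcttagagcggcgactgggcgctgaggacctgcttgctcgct

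Irs1, the docking protein that couples the IGF and insulin receptors to PI3-kinase, lies on chromosome 1 from 82233105 to 82291439 (GRCm38.p6). It read 8.15 and 8.15 log2 units in the Runx1 line, 8.63 and 8.72 in the Runx2 line and 8.16 and 8.21 in the Runx3 line, against 7.45 and 7.59 in vector cells. Every array of the mouse lines was above both vector arrays. Irs1 rose 1.54-fold in the Runx1 line (log2 change 0.63, SE 0.10, limma adjusted p = 0.00681), 2.22-fold in the Runx2 line (log2 change 1.15, SE 0.10, limma adjusted p = 3.67e-05) and 1.58-fold in the Runx3 line (log2 change 0.66, SE 0.10, limma adjusted p = 0.00111). The human RUNX1 array read 8.37, which is 0.85 above the vector mean and 0.22 above the Runx1 mean, with no replicate. The Runx1 call missed the threshold without Runx1 replicate 1 (limma adjusted p = 0.0662), Runx1 replicate 2 (0.0696) or vector replicate 1 (0.119), and in a fit of these groups alone (0.0634).

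Irs1 was also induced within 1 line. It read 8.66 and 8.56 in RUNX1-ER cells with 4-OHT, against 7.89 and 8.08 in the same cells uninduced, a log2 change of 0.63 (SE 0.10, limma adjusted p = 0.00703). Against vector cells with 4-OHT, which read 7.37 and 7.49, the induced cells were 2.27-fold higher (log2 change 1.18, SE 0.10, limma adjusted p = 3.27e-05), and no array overlapped. 4-OHT in vector cells gave a log2 change of −0.09 for Irs1 (limma adjusted p = 0.934, 95% interval −0.31 to 0.12). The induction beyond that value was 0.72 (SE 0.14) and did not pass (limma adjusted p = 0.0589). Adjusted over genes in place of probe sets it passed (0.0353 with the brightest probe set, 0.0195 with the mean). The rise within RUNX1-ER cells missed the threshold without induced replicate 1 (limma adjusted p = 0.110) or uninduced replicate 1 (0.0523), and in a fit of these groups alone (0.163).

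Uninduced RUNX1-ER cells lay between the vector cells and the constitutive lines in Irs1. Both of their arrays were above both vector arrays, by a mean of 0.46 (SE 0.10), but the difference did not pass (limma adjusted p = 0.243, unadjusted p = 0.00051). Of the 10 genes, 0 were called in this comparison by limma, 2 had an unadjusted p under 0.05 (Irs1 and Pik3r3), and 0.0165% of all genes were called. With an intensity trend in the variance prior, Irs1 alone was called (limma adjusted p = 0.0412). Ranked by mean, Irs1 stood highest in the Runx2 line (8.67), then in induced RUNX1-ER (8.61), human RUNX1 (8.37), Runx3 (8.19), Runx1 (8.15), uninduced RUNX1-ER (7.98), vector (7.52) and vector with 4-OHT (7.43). Arrays overlapped between Runx2 and induced RUNX1-ER and between the vector groups, and the means of the Runx3 and Runx1 lines differed by 0.04 (95% interval −0.18 to 0.25).

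The size of the Irs1 rise differed between the mouse Runx lines in the fit of all 15 arrays. With Runx2 it exceeded Runx1 by 0.52 (SE 0.10, limma adjusted p = 0.0295), and Runx3 minus Runx2 was −0.49 (SE 0.10, limma adjusted p = 0.0262). Each of these calls was lost whichever of its 4 arrays was left out. The limma adjusted p then lay between 0.110 and 0.185 for Runx2 against Runx1 and between 0.0835 and 0.142 for Runx3 against Runx2. In fits of the compared groups alone it was 0.244 and 0.187.

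Irs2, the other widely expressed docking protein, was not called. On its 1 probe set it read 5.05 and 4.78 in the Runx1 line, 4.88 and 4.63 in the Runx2 line and 4.68 and 4.45 in the Runx3 line, against 4.80 and 4.80 in vector cells. It passed in none of the 11 comparisons, with changes from −0.36 to 0.12 and a lowest adjusted p of 0.202. In the Runx2 line the change was −0.04. The gene lies on chromosome 8 from 10984681 to 11008929, and where the probe set lies in it is not known here.

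Pik3r3, a regulatory subunit of PI3-kinase that binds phosphorylated docking proteins, showed the widest range among the members, from 4.25 to 6.79 log2 units. The gene lies on chromosome 4 from 116221400 to 116303056. It read 5.79 and 5.85 in the Runx1 line, 5.99 and 6.10 in the Runx2 line and 6.79 and 6.48 in the Runx3 line, against 4.90 and 4.40 in vector cells. All arrays of the lines were above both vector arrays, and the Runx3 arrays were the highest of all 15. It rose 2.25-fold with Runx1, 2.63-fold with Runx2 and 3.95-fold with Runx3 (SE 0.16 on the log2 scale, limma adjusted p = 0.00165, 0.000326 and 3.4e-06). The human RUNX1 array read 5.07, which is 0.42 above the vector mean and 0.75 below the Runx1 mean (−0.75). In fits of the compared groups alone the adjusted p was 0.0505 for Runx1 and 0.05 for Runx2.

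Pik3r3 was higher with Runx3 than with Runx1, by 0.81 (SE 0.16, limma adjusted p = 0.00937). The difference of 0.59 between the Runx3 and the Runx2 line did not pass (limma adjusted p = 0.0920), nor did that of 0.22 between Runx2 and Runx1 (limma adjusted p = 0.742, 95% interval −0.12 to 0.56). The first of these was lost without Runx1 replicate 1 (limma adjusted p = 0.0822), Runx1 replicate 2 (0.0583) or Runx3 replicate 1 (0.105).

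In RUNX1-ER cells Pik3r3 was above the vector level with and without induction. Induced cells read 5.43 and 5.40 and uninduced cells 5.32 and 5.33, a log2 change of 0.09 that did not pass (limma adjusted p = 0.942, 95% interval −0.25 to 0.43). Both stood above the vector cells with 4-OHT (4.25 and 4.61) and without (4.90 and 4.40). Induced cells were higher than vector cells with 4-OHT by 0.98 (SE 0.16, limma adjusted p = 0.00462), and uninduced cells were higher than vector cells by 0.68, which did not pass (limma adjusted p = 0.286). The call for induced cells was lost without induced replicate 1 (limma adjusted p = 0.0545) and in a fit of these groups alone (0.0610).

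Igfbp6, a secreted protein that binds Igf2 in preference to Igf1, was the brightest member, at the 99.2th percentile or higher on every array. It lies on chromosome 15 from 102144186 to 102149512. It read 12.07 and 12.14 in the Runx1 line, 11.96 and 11.93 in the Runx2 line and 12.10 and 11.99 in the Runx3 line, against 11.47 and 11.47 in vector cells. The lines stood clear of the vector arrays, which nearly coincided. It rose by 0.64 with Runx1 (limma adjusted p = 0.0016), 0.47 with Runx2 (limma adjusted p = 0.0115) and 0.58 with Runx3 (limma adjusted p = 0.000861), each with an SE of 0.08. No pair of lines differed past the threshold, and the widest difference, Runx2 against Runx1, was −0.16 (95% interval −0.35 to 0.02, called with the intensity trend, limma adjusted p = 0.0345). The human RUNX1 array gave the highest value of all, 12.44, which is 0.97 above the vector mean. The Runx2 call was lost without Runx2 replicate 1 (limma adjusted p = 0.0951), vector replicate 1 (0.111) or vector replicate 2 (0.104), and in a fit of these groups alone (0.145).

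Igfbp6 rose on induction too. Induced RUNX1-ER cells read 11.89 and 11.88, against 11.52 and 11.46 uninduced, and against 11.45 and 11.47 in vector cells with 4-OHT. The change was 0.40 within the line (SE 0.08, limma adjusted p = 0.0449) and 0.43 from vector cells with 4-OHT (SE 0.08, limma adjusted p = 0.0185). Uninduced cells differed from vector cells by 0.02 (95% interval −0.16 to 0.20), where that difference was 0.46 for Irs1. Each of the calls on induction was lost whichever of its 4 arrays was left out, with limma adjusted p between 0.0796 and 0.290 within the line and between 0.0673 and 0.141 against the vector cells, and in fits of the compared groups alone (0.272 and 0.155). The call within the line was also lost on median-centred arrays (0.0746) and with replicate number as a block (0.0629).

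**Figure D2:**
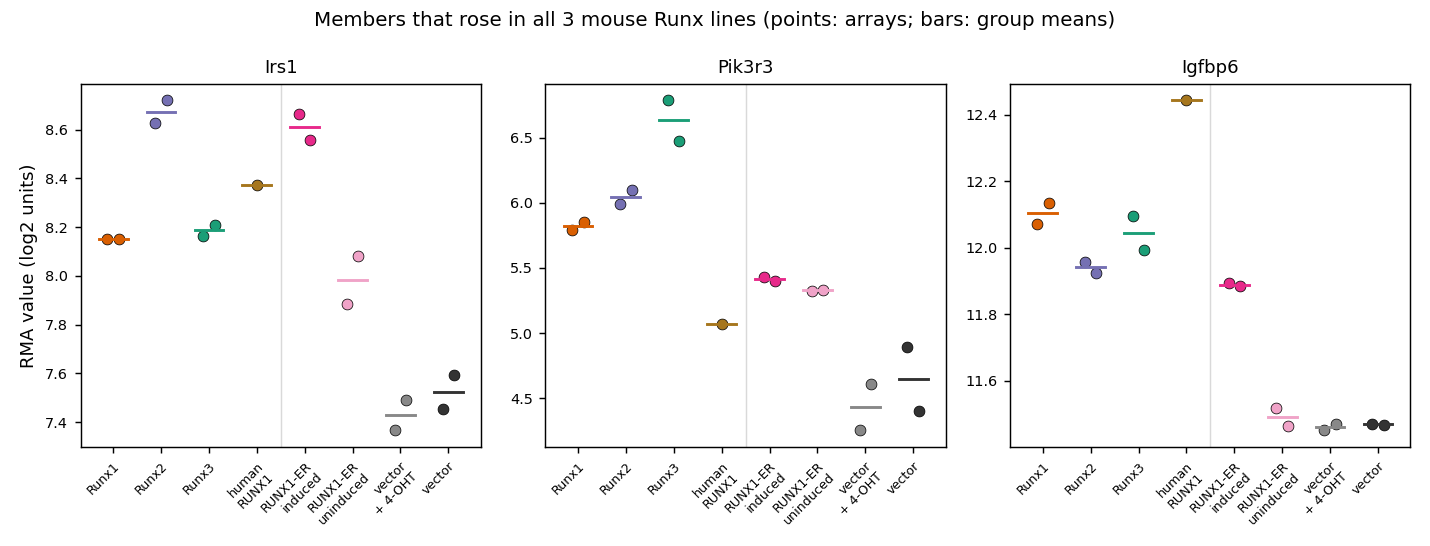
Points are arrays and bars are group means of the RMA value in log2 units for Irs1, Pik3r3 and Igfbp6, with the constitutive lines at the left of the grey line and RUNX1-ER and vector groups at its right. All arrays of the 3 mouse lines lie above all 4 vector arrays in each panel, and the induced RUNX1-ER arrays lie above the uninduced ones clearly for Irs1 and Igfbp6 and by 0.09 on average for Pik3r3.

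Over the RUNX1-ER comparisons, 3 of the 10 genes were called in induced RUNX1-ER against vector with 4-OHT (Irs1, Igfbp6 and Pik3r3, all higher), beside 2.92% of all genes. Within the line 2 were called (Irs1 and Igfbp6), beside 1.41%. With 4-OHT in vector cells limma called 0 of the 10, none had an unadjusted p under 0.05, and 0% of all genes were called. For induction beyond 4-OHT it called 0, with 2 at an unadjusted p under 0.05 (Irs1 and Igfbp6), beside 0.478% of all genes. With the intensity trend these 2 were called.

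Igfbp4, a binding protein that limits IGF action and is cleaved by the protease Pappa, fell in the Runx2 line. The gene lies on chromosome 11 from 99040005 to 99052655. Its brightest probe set read 9.61 and 9.51 in the Runx1 line, 8.82 and 8.64 in the Runx2 line and 9.81 and 9.85 in the Runx3 line, against 9.52 and 9.46 in vector cells. The Runx2 arrays were the lowest of all 15 and the Runx3 arrays the highest. The log2 change with Runx2 was −0.76 (SE 0.10, limma adjusted p = 0.00158), and on the other 5 probe sets it ran from −0.80 to −0.49, with 4 of these 5 called. The brightest kept its call without each array in turn, and a fit of these groups alone gave it an adjusted p of 0.0635. Such a fit also ended the calls on 1437406_x_at (0.110), 1423757_x_at (0.133) and 1421991_a_at (0.141). On 1423757_x_at the call was lost without Runx2 replicate 2 (limma adjusted p = 0.0699), vector replicate 1 (0.0971) or vector replicate 2 (0.0806). On 1421991_a_at it was lost whichever of the 4 arrays was left out (0.0744 to 0.213).

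With Runx3 the same probe sets were higher, and 4 of the 6 were called. The brightest changed by 0.34 and did not pass (limma adjusted p = 0.0964), and the others changed by 0.27 to 0.63. The most changed, 1421991_a_at, read 7.00 and 7.06 in the Runx3 line against 6.37 and 6.44 in vector cells, and rose by 0.63 (SE 0.10, limma adjusted p = 0.00158). The mean over the 6 probe sets rose by 0.44 (limma adjusted p = 0.00281), and against vector cells with 4-OHT the brightest was higher by 0.50 (limma adjusted p = 0.00962). In the Runx1 line all 6 changes were positive, from 0.03 to 0.32, and none passed. The 6 probe sets measure the same gene and bear 3 pairs of consecutive numbers. Of the 6, 3 are of the kinds that can match other transcripts too. The probe sets are therefore not independent of each other, and the sequences behind them are not known here. The call on 1421991_a_at held without each array in turn. On 1423756_s_at it was lost without Runx3 replicate 1 (limma adjusted p = 0.0506), vector replicate 1 (0.0520) or vector replicate 2 (0.0642). On 1421992_a_at and 1423757_x_at it was lost whichever of the 4 arrays was left out (0.0958 to 0.188 and 0.118 to 0.263). The call on 1423757_x_at was also lost on median-centred arrays (0.0538), with cyclic loess (0.0552), with replicate number as a block (0.0648) and in a fit of these groups alone (0.0713).

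Line against line, Igfbp4 gave the largest difference of the 10 genes in any pair of mouse lines. Runx3 cells exceeded Runx2 cells by 1.10 on the brightest probe set (SE 0.10, limma adjusted p = 0.000111). Over all 6 the difference was 0.94 to 1.33, and each was called (limma adjusted p = 1.92e-05 to 0.000572). Runx2 minus Runx1 was −0.83 on the brightest (SE 0.10, limma adjusted p = 0.00188). Over all 6 it was −1.11 to −0.59, again all called (limma adjusted p = 0.00015 to 0.0139). In fits of the compared groups alone, all 6 calls for Runx2 against Runx1 were lost (limma adjusted p = 0.118 on the brightest and 0.0583 to 0.208 over all 6). On 1421991_a_at that call was lost without Runx1 replicate 1 (limma adjusted p = 0.150), Runx1 replicate 2 (0.0574) or Runx2 replicate 1 (0.111), on 1421992_a_at without Runx1 replicate 1 (0.0643) or 2 (0.0618), and on 1423757_x_at without Runx1 replicate 2 (0.0510). The 6 calls for Runx3 against Runx2 held without each array in turn, but in a fit of these groups alone 3 were lost, those on 1421992_a_at (0.0782), 1437406_x_at (0.0667) and 1423757_x_at (0.0524). Runx3 exceeded Runx1 by 0.27 on the brightest (limma adjusted p = 0.250). Of the 6 probe sets, 1421991_a_at alone was called, higher by 0.53 (limma adjusted p = 0.00803), and that call was lost without Runx1 replicate 2 (0.0933) or Runx3 replicate 2 (0.0772) and in a fit of these groups alone (0.0626).

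Induced RUNX1-ER cells had less Igfbp4 than uninduced cells without passing the test. They read 9.07 and 8.94 on the brightest probe set, against 9.34 and 9.57 uninduced and 9.34 and 9.32 in vector cells with 4-OHT. The change was −0.46 within the line (SE 0.10, limma adjusted p = 0.0648) and −0.32 from vector cells with 4-OHT (limma adjusted p = 0.165). Against vector cells with 4-OHT all 6 probe sets were negative, from −0.35 to −0.30. That change passed with the mean of the 6 probe sets (limma adjusted p = 0.0366). The change within the line passed when adjusted over genes with the brightest probe set (limma adjusted p = 0.0398), but not with the mean of the 6. On 1421992_a_at the induced cells averaged 7.86 and the uninduced cells 7.96, and on 1421991_a_at 6.08 and 6.26. The human RUNX1 array read 9.08 on the brightest, −0.42 from the vector mean, while its 6 differences ran from −0.43 to 0.16.

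**Figure D3:**
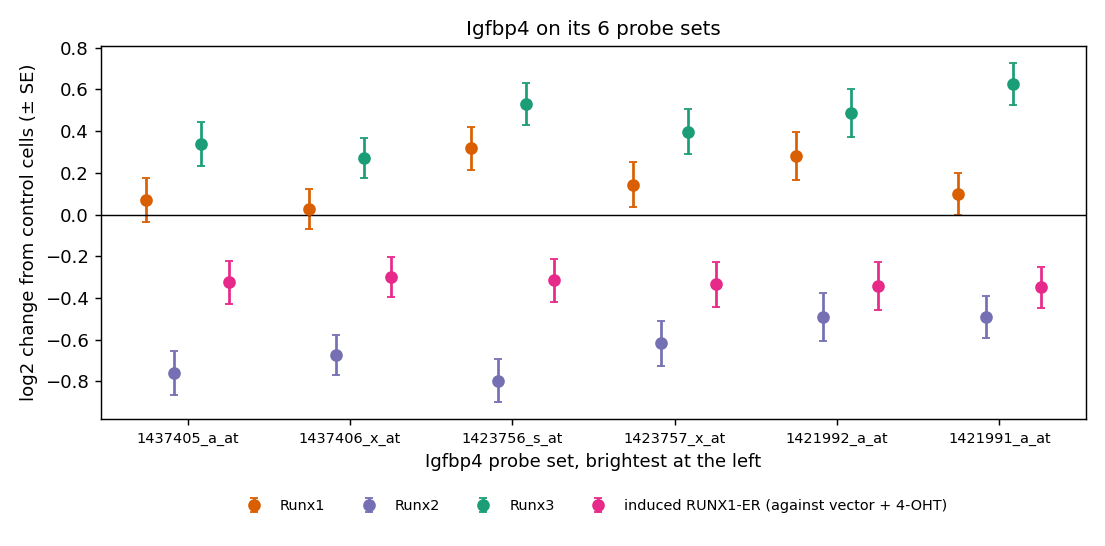
Each point is the log2 change of 1 Igfbp4 probe set, with its SE from limma, in the Runx1, Runx2 and Runx3 lines from vector cells and in induced RUNX1-ER from vector cells with 4-OHT. On all 6 probe sets the Runx3 line is above 0 and the Runx2 line and induced RUNX1-ER are below 0.

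Igfbp3 and Igfbp5, binding proteins that also attach to matrix and cell surfaces, and Igf1, the secreted ligand, gave no call. Together with Irs2 they had 9 probe sets, and none passed in any of the 11 comparisons (lowest limma adjusted p = 0.202). The brightest Igf1 probe set read 3.82 and 3.98 in the Runx1 line, 3.67 and 3.71 in the Runx2 line and 3.93 and 3.93 in the Runx3 line, against 3.92 and 4.04 in vector cells. The brightest of Igfbp3 ran from 3.12 to 3.45 over the 15 arrays and that of Igfbp5 from 3.70 to 4.28. Over the 9 probe sets the values lay between the 0.188th and the 70.3th percentile of their array. One Igf1 probe set was called for Runx2 against Runx1 when Runx2 replicate 2 was left out (limma adjusted p = 0.0368). Detection calls were not used here.

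Igf1r, the signalling receptor of the axis, fell in the Runx3 line. It lies on chromosome 7 from 67952257 to 68233668. Its brightest probe set read 8.21 and 8.31 in the Runx1 line, 8.18 and 8.32 in the Runx2 line and 7.72 and 7.80 in the Runx3 line, against 8.40 and 8.36 in vector cells. The 2 Runx3 arrays were the lowest of all 15. The log2 change was −0.62 with Runx3 (SE 0.13, limma adjusted p = 0.0134), −0.12 with Runx1 (95% interval −0.41 to 0.17) and −0.13 with Runx2 (95% interval −0.42 to 0.16). Of the other 4 probe sets, those at intermediate levels changed by −0.43 and −0.39 with Runx3 without passing (limma adjusted p = 0.117 and 0.452), and the dim pair by −0.09 and 0.00. The call was lost whichever array of the comparison was left out, with a limma adjusted p of 0.0938 and 0.0632 without Runx3 replicates 1 and 2 and of 0.110 and 0.0758 without vector replicates 1 and 2. Set against the Runx1 and Runx2 lines directly, the Runx3 line differed by −0.50 and −0.49 without passing (limma adjusted p = 0.0593 and 0.100). Adjusted over genes in place of probe sets, the difference from Runx1 passed with the brightest probe set (0.0396), but not with the mean of the gene's probe sets. With an intensity trend both differences passed (0.0101 and 0.0213). Probe set 1426565_at differed from Runx1 by −0.54 without passing (limma adjusted p = 0.0512). It passed in some alternative fits, with adjusted p from 0.0190 to 0.0497. Probe set 1428967_at differed from Runx1 by −0.52 and did not pass (limma adjusted p = 0.264).

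Igf2r, the mannose 6-phosphate receptor that clears Igf2, also fell in the Runx3 line. It lies on chromosome 17 from 12682406 to 12769706. On the brighter probe set it read 6.08 and 6.05 in the Runx1 line, 6.25 and 6.43 in the Runx2 line and 5.40 and 5.63 in the Runx3 line, against 6.27 and 6.35 in vector cells. The Runx3 arrays were again the lowest of all, followed by the human RUNX1 array at 5.68. The log2 change with Runx3 was −0.80 (SE 0.14, limma adjusted p = 0.00341), against −0.25 with Runx1 and 0.03 with Runx2, neither of which passed. The other probe set changed by −0.38 with Runx3 and did not pass (limma adjusted p = 0.252), though from vector cells with 4-OHT it was lower by −0.64 (limma adjusted p = 0.0242).

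Directly compared, Igf2r was lower with Runx3 than with Runx2 (log2 change −0.83, SE 0.14, limma adjusted p = 0.00779) and than with Runx1 (−0.55, SE 0.14, limma adjusted p = 0.0489). The first was lost without Runx2 replicate 2 (limma adjusted p = 0.0633) or Runx3 replicate 1 (0.0833), and in a fit of these groups alone (0.104). The second was lost whichever of its 4 arrays was left out (0.0823 to 0.282), in a fit of these groups alone (0.0781), with replicate number as a block (0.0653) and with the mean of the gene's probe sets (0.125). Induced RUNX1-ER cells read 6.18 and 5.95, against 6.33 and 6.58 uninduced, a change of −0.39 that did not pass (limma adjusted p = 0.366).

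**Figure D4:**
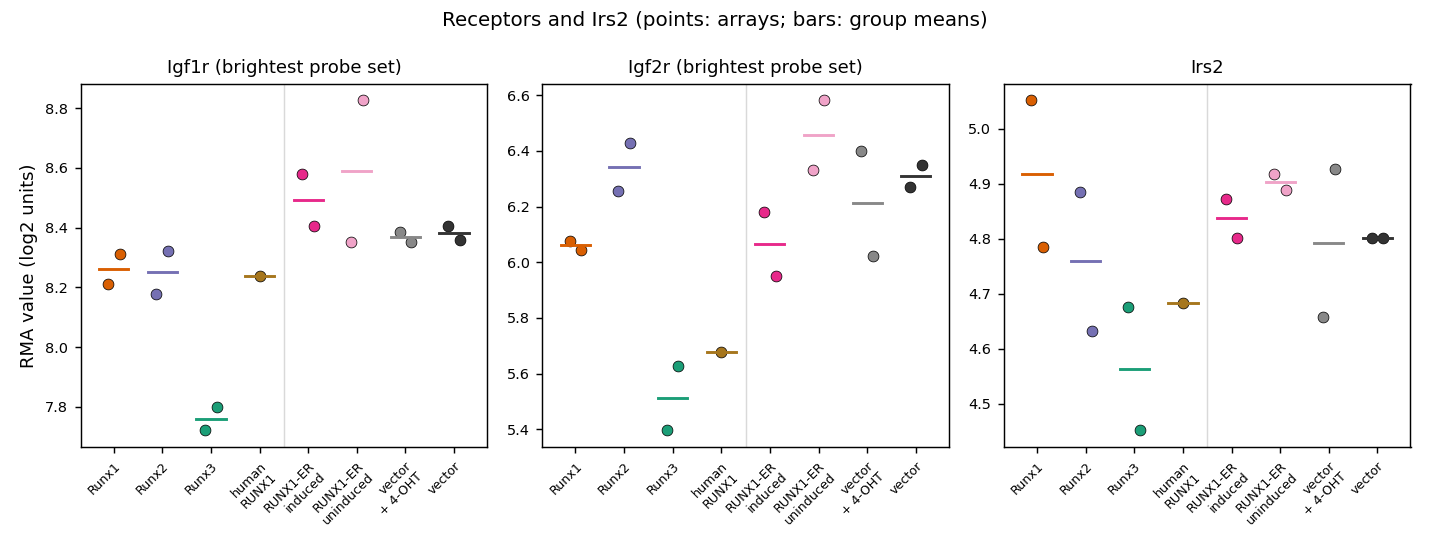
Points are arrays and bars are group means of the RMA value in log2 units for Igf1r, Igf2r (the brightest probe set of each) and Irs2, in the same 8 groups. The Runx3 arrays are the lowest of all for Igf1r (7.72 and 7.80) and Igf2r (5.40 and 5.63), and Irs2 stays between 4.45 and 5.05.

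Over the comparisons between lines, 2 of the 10 genes were called for Runx2 against Runx1 (Irs1 higher and Igfbp4 lower, beside 1.18% of all genes). There were 2 for Runx3 against Runx1 (Pik3r3 higher and Igf2r lower, beside 5.25%) and 3 for Runx3 against Runx2 (Igfbp4 higher, Irs1 and Igf2r lower, beside 2.64%).

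A minority of the other pathway genes passed the test. Of 63 listed genes outside the 10, 59 were measured, on the brightest probe set of each. The lists too were chosen with earlier results of these data known, so the shares below describe these genes only. In the Runx1 line 1 rose and 1 fell (3.39%, beside 1.42% of all genes), in the Runx2 line 2 rose and 0 fell (3.39%, beside 2.13%), and in the Runx3 line 3 rose and 6 fell (15.3%, beside 7.83%). Their median log2 changes were −0.01, −0.05 and −0.03, where those over all genes were −0.01, −0.01 and 0.00. In induced RUNX1-ER against vector with 4-OHT 3 rose and 1 fell (6.78%, beside 2.92%). The 3 were Grb10, Socs3 (0.89, limma adjusted p = 0.00154) and Rictor (0.42, limma adjusted p = 0.0448), the last pair named after their values were seen. By part of the pathway, and beside 7.83% of all genes called, the Runx3 line had 1 of 11 genes of IGF availability lower, 1 of 13 receptors and adaptors higher and 2 lower, 1 of 9 PI3-kinase subunits lower, 1 of 16 genes of the AKT, mTOR and FoxO branch lower, and 2 of 10 brakes higher and 1 lower.

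Among the adaptors, Grb10, which binds the IGF and insulin receptors and dampens their signal, rose in the Runx2 and Runx3 lines. It averaged 11.04 in the Runx2 line and 11.12 in the Runx3 line, against 10.39 in vector cells, with changes of 0.65 and 0.72 (SE 0.10, limma adjusted p = 0.00358 and 0.000478). In induced RUNX1-ER cells it was higher than in vector cells with 4-OHT by 0.63 (limma adjusted p = 0.00388), and in the Runx1 line it changed by 0.13 (limma adjusted p = 0.900). Its other 2 probe sets rose with Runx3 by 0.99 and 0.95 (limma adjusted p = 0.0316 and 0.0288). With Runx2 these changed by 0.87 and 0.53 without passing (limma adjusted p = 0.146 and 0.461). With Runx1 they changed by 0.39 and 0.26, also without passing (limma adjusted p = 0.845 and 0.937). The Runx2 call was lost without vector replicate 1 (limma adjusted p = 0.0554) and in a fit of these groups alone (0.0606). The call in induced cells was lost without induced replicate 1 (0.0622), in such a fit (0.0715) and with the mean of the gene's probe sets (0.130). Grb14, a relative of Grb10, changed by −0.59 in the Runx3 line (SE 0.10, limma adjusted p = 0.00348). Its call was lost without Runx3 replicate 2 (0.0538), in a fit of these groups alone (0.0637) and with the mean of its probe sets (log2 change −0.23, limma adjusted p = 0.139), its other probe set having changed by 0.13. Grb14 was also lower in induced than in uninduced RUNX1-ER cells (log2 change −0.60, limma adjusted p = 0.0115). For Grb14 this comparison was not recomputed with arrays left out. Sos1, an activator of Ras, changed by −0.42 with Runx3 (limma adjusted p = 0.0343), while its other 4 probe sets changed by −0.11 to 0.19 and did not pass. That call was lost whichever of the 4 arrays was left out (0.143 to 0.185), in a fit of these groups alone (0.0531), with the mean of its probe sets (0.810) and against vector cells with 4-OHT (0.0851).

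Pik3r2, another regulatory subunit of PI3-kinase, moved opposite to Pik3r3 in the Runx3 line. It averaged 6.56 in the Runx3 line, against 7.27 in vector cells, a log2 change of −0.71 (SE 0.10, limma adjusted p = 0.000716), which held without each array in turn. In the Runx1 and Runx2 lines it changed by 0.23 and 0.30 and did not pass. Runx3 minus Runx2 was −1.02 and Runx3 minus Runx1 was −0.94 (limma adjusted p = 0.000176 and 0.000118). These differences between lines were not recomputed with arrays left out. None of the other 8 PI3-kinase subunit genes was called in the 3 lines.

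Of the brakes on the pathway, Ptprf, a receptor phosphatase that can act on the insulin receptor, rose by 0.55 in the Runx2 line and 0.65 in the Runx3 line (SE 0.11, limma adjusted p = 0.0199 and 0.00243). The Runx2 call was lost whichever of its 4 arrays was left out (0.0695 to 0.222) and in a fit of these groups alone (0.141). The other 2 Ptprf probe sets changed by 0.52 and 0.24 with Runx2 without passing (limma adjusted p = 0.328 and 0.536). With Runx3 both changed by 0.50, and 1 passed (limma adjusted p = 0.213 and 0.0236). Ptpn1, a phosphatase of the same receptors, rose by 0.43 with Runx3 (limma adjusted p = 0.0234). This call was lost without Runx3 replicate 2 (0.218), vector replicate 1 (0.0512) or vector replicate 2 (0.231), in a fit of these groups alone (0.106) and with the mean of its probe sets (0.0915). The other Ptpn1 probe set changed by 0.17 with Runx3 (limma adjusted p = 0.716). Trib3, a pseudokinase that can bind AKT, rose by 1.03 with Runx1 and fell with Runx3 (log2 change −1.10, limma adjusted p = 0.00347 and 0.000557). The rise was lost without Runx1 replicate 1 (0.0510) or vector replicate 2 (0.0509) and with the mean of its probe sets (0.0627). The other Trib3 probe set changed by 0.71 with Runx1 without passing (limma adjusted p = 0.488) and by −1.26 with Runx3 (limma adjusted p = 0.0142). Foxo3, a transcription factor that AKT keeps out of the nucleus, changed by −0.45 with Runx3 (limma adjusted p = 0.0337), which was lost whichever of the 4 arrays was left out (0.100 to 0.248) and in a fit of these groups alone (0.0559). Of its other 2 probe sets, 1 fell (log2 change −0.53, limma adjusted p = 0.00385) and 1 changed by −0.02.

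Of the genes of IGF availability, Igfbp7, which binds IGFs weakly, changed by −0.76 in the Runx1 line (SE 0.14, limma adjusted p = 0.0147) and by −0.63 in induced RUNX1-ER cells from vector cells with 4-OHT (limma adjusted p = 0.0308). Its other 2 probe sets changed by 0.00 and 0.05 with Runx1, and the mean of all 3 did not pass (limma adjusted p = 0.342 and 0.182). Without 1 array the Runx1 call was lost for Runx1 replicate 1 (0.177), vector replicate 1 (0.179) and vector replicate 2 (0.0803), and the call in induced cells for induced replicate 2 (0.267) and for replicates 1 and 2 of vector with 4-OHT (0.105 and 0.122). In fits of the compared groups alone both were lost (0.132 and 0.155). Htra1, a secreted protease, changed by −0.64 and −0.68 on its 2 probe sets with Runx3 (limma adjusted p = 0.0335 and 0.00641). The first of these was lost whichever of the 4 arrays was left out (0.0688 to 0.283) and in a fit of these groups alone (0.0525).

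The genes whose levels followed Irs1 most closely over the 15 arrays were Cdc42ep1 (Pearson r = 0.92), Cnn2 (0.90), Wwp2 (0.89), Cpt1a (0.89) and Zfas1 (0.88), out of 6135 genes with a mean above 6. Most opposite were Id3 (−0.92), Gtf2e2 (−0.91), Dnajc5 (−0.90), Sertad1 (−0.90) and Mxi1 (−0.89). The arrays share groups and controls, so these values are descriptions. Among the other members, Igfbp6 (0.69) and Pik3r3 (0.66) were closest to Irs1, Igfbp4 was furthest on the opposite side (−0.52), and the remaining 6 lay between −0.24 and −0.06.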

How the data were processed

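Expression was measured on 15 Affymetrix mouse arrays. Per the labels' protocols, the authors scanned them with GCOS and normalised them by robust multichip average (RMA), and the deposited values are RMA log2 units, 1 column per array. Versions of these tools and the positions of the probes were not used here. The 64 manufacturer controls were left out, and no column was dropped or imputed. Of the remaining 45037 probe sets, 34945 had 1 gene symbol in the platform annotation, 932 several and 9160 none.

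From these values limma 3.58.1 in R 4.3.3 fitted 1 mean per group over all 15 arrays (7 residual and 6.21 prior degrees of freedom), so the arrays of every group share 1 estimate of the spread, and the human RUNX1 array, being alone, was given no test. P-values were adjusted by Benjamini-Hochberg over 45037 probe sets in each of 11 comparisons, with a threshold of 0.05. Gene counts use the probe set with the highest mean. The script was tested on simulated data. The small number of arrays, 2 in a group, limits the precision, and the scanner's background is not known here.

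All probe sets of the 10 genes are described. Of each pathway list, up to 4 genes past the threshold in a mouse line are named, those with the largest change, and as genes most like Irs1 the 5 with the highest and the 5 with the lowest correlation. The members, the lists and the markers were chosen with earlier results of these data known. Alternatives were leaving out each replicate, replicate number as a block, gene-level values, a filter on dim probe sets, median centring, cyclic loess, a fit of the compared groups alone, an intensity trend and the 4-OHT vector arrays as control. Use of all 4 vector arrays as control was added after seeing the data, as was applying the alternatives to the pathway lists.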

Additional observations from a re-analysis of the deposited data

Results flagged for a closer look

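The results below are those in which the response of a gene differed between the mouse Runx lines when 1 line was set against another directly, past the threshold in limma. All are log2 changes. The adjusted p-values, for Igfbp4 partly as ranges over its probe sets, and the arrays on which each call rests stand in the report. Irs1 was higher with Runx2 than with Runx1 by 0.52, and Runx3 minus Runx2 was −0.49. Pik3r3 was higher with Runx3 than with Runx1 by 0.81. On Igf2r probe set 1424111_at, Runx3 minus Runx1 was −0.55 and Runx3 minus Runx2 was −0.83.

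Igfbp4 differed on all 6 of its probe sets, which measure the same gene and are not independent of each other. For Runx2 minus Runx1 the changes were −0.83 on 1437405_a_at, −0.70 on 1437406_x_at, −1.11 on 1423756_s_at, −0.76 on 1423757_x_at, −0.77 on 1421992_a_at and −0.59 on 1421991_a_at. For Runx3 minus Runx2, in the same order, they were 1.10, 0.94, 1.33, 1.02, 0.98 and 1.12. On 1421991_a_at, Runx3 minus Runx1 was 0.53.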

How the results depend on the processing

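Of 3738 values recomputed for members and named genes, 3545 stayed on their side of the threshold, 146 called values lost their call, 47 gained one and 0 called values changed sign. Named pathway genes were recomputed only for the mouse lines against vector and for induced RUNX1-ER against vector with 4-OHT. Counts of the 10 members called, with each array of a comparison left out in turn, ran from 2 to 3 for Runx1, 3 to 4 for Runx2 and 4 to 4 for Runx3 against vector, from 0 to 1 for Runx3 against Runx1, 1 to 2 for Runx3 against Runx2 and 1 to 1 for Runx2 against Runx1. They ran from 1 to 2 for induced RUNX1-ER against vector with 4-OHT and 0 to 1 for induced against uninduced. In fits of only the groups compared, which have fewer arrays, the counts were 1 for Runx1 and 1 for Runx2 against vector, 0 for Runx2 against Runx1, 1 each for Runx3 against Runx1 and Runx3 against Runx2, 1 for induced RUNX1-ER against vector with 4-OHT and 0 for induced against uninduced. With the mean of a gene's probe sets 1 was called for Runx3 against Runx1. Induction beyond 4-OHT had 1 call with 1 probe set per gene, 1 with the mean and 2 with the intensity trend, and uninduced RUNX1-ER against vector had 1 with the trend. Where no cause is named, the cause was not tested.

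Genes of the pathway lists called, with 1 array left out, ran from 0 to 2 for Runx1, 0 to 1 for Runx2 and 4 to 6 for Runx3 against vector and from 2 to 3 for induced RUNX1-ER against vector with 4-OHT. In fits of only the groups compared they were 1, 0, 4 and 1. With the mean of a gene's probe sets 1 was called for Runx1, and with all 4 vector arrays as control 4 for Runx2. Over all probe sets, the calls against vector were 418, 619 and 2297 for Runx1, Runx2 and Runx3, with 237, 183 and 1599 in fits of only the groups compared and 642, 972 and 2961 with the trend.

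Over 21 pairs of groups, the correlation of replicate differences ran from −0.11 to 0.14 and was above 0.1 in 1. The labels do not say whether arrays with the same replicate number were handled together, and these correlations cannot settle it. With replicate number as a block, 1 member was called for induced against uninduced RUNX1-ER and 1 for Runx3 against Runx1, and the calls over all probe sets were 399, 575 and 2205 for Runx1, Runx2 and Runx3 against vector. The filter on dim probe sets kept 23 of the 25 member probe sets.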
